A study of Mus musculus with 4 samples.

Results

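Across the 4 control lung tumours of the series, 10 genes of cellular iron handling were followed: the ferritin chains Fth1 and Ftl1, the ferritin cargo receptor Ncoa4, the uptake genes Tfrc, Slc11a2, Steap3 and Lcn2, the exporter Slc40a1, and the iron sensors Aco1 and Ireb2. They were taken from the table of 39017 genes by an exact match of the gene symbol, and all 10 members were found. Ncoa4 was chosen by its measured counts in these tumours, which in 1 of them were far below the rest, so its values are given as a description with no test. The other 9 were picked for what they do.

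The tumours arose in male KP mice on a C57BL/6 background, which model lung adenocarcinoma: Cre recombinase switches on an activated K-ras allele (LSL-G12D, 1 copy) and deletes both floxed copies of p53. Cre was carried into the airways by 1500 units of lenti.PGK-Cre, a lentivirus with the broadly active PGK promoter, so that recombination was not limited to 1 lung cell type. Tumours were cut out 22 weeks and 5 days after infection and dispersed to single cells, and RNA was extracted. The methods of the study describe both whole tumours and, for the PGK-Cre virus among others, fractions from which CD45+ immune cells had been removed with magnetic beads, whereas the labels of these libraries name only the suspension, so which of these they are was not settled here. The labels call the tumours Control and heterozygous fl/wt without naming that gene, whereas the columns of the normalised table call them WT; the methods of the study describe controls with either 2 normal copies of Slc2a1 or 1 floxed copy. All 4 tumours belong to 1 group, so the only comparison is between tumours. Each tumour gave 1 library, so differences between tumours and differences between library preparations cannot be told apart.

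Cells take up iron mainly as transferrin bound to the transferrin receptor, reduce it in the endosome, and pass it to the cytosol through a divalent metal transporter. Iron that is not used is stored in the ferritin shell, which is built from heavy and light chains and is delivered to the lysosome by Ncoa4 when iron is needed, or it leaves through ferroportin. The iron regulatory proteins, encoded by Aco1 and Ireb2, bind stem-loops called iron-responsive elements in the untranslated regions of several of these mRNAs when iron is scarce: this blocks translation of the ferritin and ferroportin messages and protects the Tfrc message from decay. In the lung, alveolar macrophages and epithelial cells take up and store iron from inhaled particles and from red cells.

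The elements themselves are shown because they tie the storage, uptake and export genes to the sensors. A search for a C, any 5 bases, the letters CAGTG and any 6 bases, in which the 5 bases on either side of the loop pair with each other, on the transcribed strand only, was run over the annotated untranslated regions of the mouse genome (GRCm38, GENCODE M21). Capitals mark the loop of 6 bases.
Fth1, 5′ UTR, exon 1, chr19:9982733-9982759, plus strand: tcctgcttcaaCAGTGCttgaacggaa
Ftl1, 5′ UTR, exon 1, chr7:45459780-45459806, minus strand: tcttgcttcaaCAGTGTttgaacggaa
Slc40a1, 5′ UTR, chr1:45925466-45925492, minus strand: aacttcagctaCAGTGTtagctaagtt
Tfrc, 3′ UTR, exon 19, chr16:32631220-32631246, plus strand: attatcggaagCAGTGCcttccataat
Tfrc, 3′ UTR, exon 19, chr16:32631599-32631625, plus strand: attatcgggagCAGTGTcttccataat
Tfrc, 3′ UTR, exon 19, chr16:32631664-32631690, plus strand: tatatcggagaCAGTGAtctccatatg
Tfrc, 3′ UTR, exon 19, chr16:32631711-32631737, plus strand: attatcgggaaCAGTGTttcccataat
A match lay in the 5′ UTR of 31 of 20899 genes with one, or 0.148%, and in the 3′ UTR of 129 of 21028 genes, or 0.613%. Tfrc was the 1 gene of 21028 with 3 or more matches in its 3′ UTR. No match was found in the annotated untranslated regions of the other 6 members, which says nothing about binding. The search required 5 unbroken pairs beside the loop, so an element with a mismatch or bulge there would be missed.

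The libraries held 8151613 to 8799007 counts in genes, so that 3 counts, the level below which a gene was treated as not detected, corresponded to 0.330 to 0.370 CPM. CPM values are counts scaled to libraries of 1000000 counts, with library sizes corrected by the trimmed mean of M-values (TMM). Sftpc, the surfactant gene that marks alveolar type 2 cells, reached 17722 to 29617 CPM. Genes used as markers of macrophages, club cells and hepatocytes were also detected, at levels that differed between tumours. They are given beside the genes they bear on. Epithelial markers summed to 2778 to 4262 CPM, and endothelial and fibroblast markers to 278 to 472 CPM. Ptprc, which encodes CD45, was at 26.2, 35.8, 83.4 and 38.5 CPM, the T cell gene Cd3e at 0.220 to 0.617 CPM, and the 5 leukocyte markers, nearly all of it Lyz2, summed to 1801, 4121, 6403 and 6737 CPM. In such mixed tissue, fewer cells of a type and less RNA per cell cannot be told apart.

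Of the 9 members other than Ncoa4, 8 varied between the tumours by more than the counting noise of the reads (chi-square test over the 4 libraries, Benjamini-Hochberg adjusted p over 14225 genes with a mean of at least 1 CPM). This was the case for 76.7% of all tested genes, so that the count says little about the members. The exception was Steap3. In 3 of the 9, Fth1, Lcn2 and Slc40a1, the highest tumour was more than 2-fold above the lowest, against 28.1% of all tested genes. Among genes with a mean of at least 10 CPM, a level reached by all of the 9 but Steap3, this share was 17.1%. Without tumour 1 a range over 2-fold held for 1 of the 9, Slc40a1, against 17.6% of all tested genes. The median standard deviation (SD) of log2 CPM over the 4 tumours was 0.31 for the 9 members and 0.29 for all tested genes. Weakly expressed genes spread more, and for genes near a mean log2 CPM of 6.5 the median SD was 0.22. Tumour 3 held the highest value for 4 of the 9 (Fth1, Tfrc, Lcn2 and Steap3), against 30.2% of all genes, and tumour 1 the lowest for 5 of the 9 (Fth1, Tfrc, Lcn2, Slc40a1 and Ireb2), against 30.4%.

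**Figure D1:**
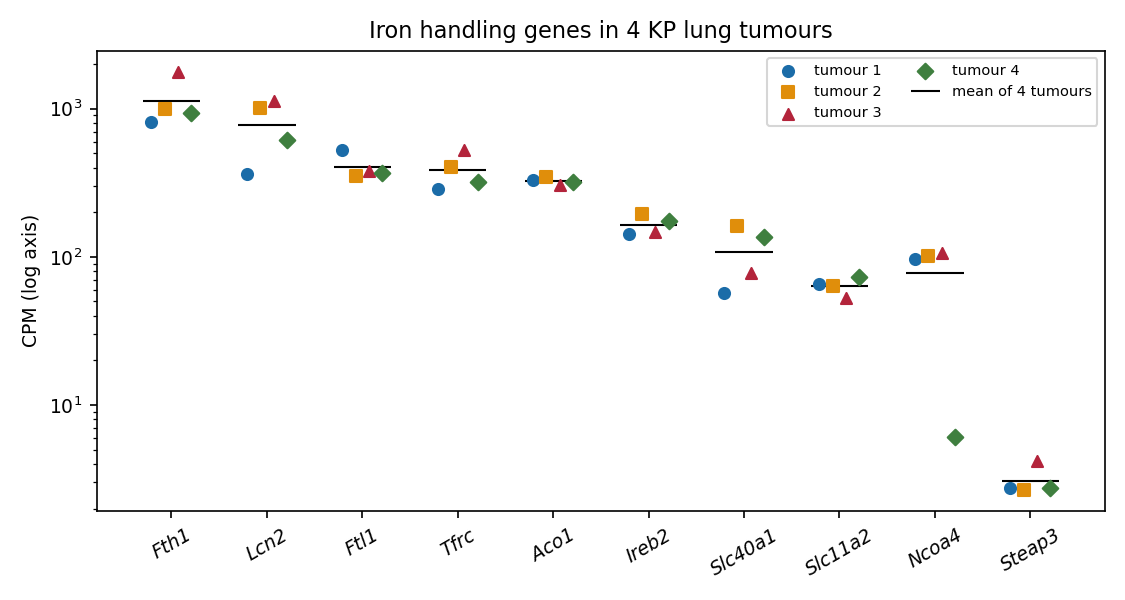
Level of each of the 10 members in each of the 4 tumours, in CPM on a log axis, with 1 point per tumour and a line at the mean. Ncoa4 sits at 96.2, 101 and 106 CPM in tumours 1 to 3 and at 6.07 CPM in tumour 4, and the points of Aco1 lie at nearly the same height.

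Fth1 encodes the ferritin heavy chain, the subunit that oxidises iron for storage. It was measured at 816, 993, 1776 and 941 CPM in tumours 1 to 4 (mean 1131 ± 436, SD, n = 4) and was the 46th most abundant of the 14225 genes by CPM. Tumour 3 stood above the other tumours, which lay close to each other, and the range was 2.18-fold, or 1.22-fold without tumour 3. In the same tumour the sum of 8 macrophage markers was 415 CPM against 254 to 282 in the others. Of the 8, 6 were at their highest there and 2, C1qa and C1qb, at their lowest. The sum of 6 alveolar macrophage markers was 957 CPM against 255 to 473, with 4 of the 6 at their highest there. Most of that sum was Chi3l3, at 775 CPM in tumour 3, and Fabp4 was at its lowest there, at 5.68 CPM. Erythroid markers, given with Tfrc, were also highest in tumour 3. The median gene of chromosome 19, which carries Fth1, deviated by 0.18 (log2) in tumour 3, where Fth1 itself deviated by 0.72 from its mean over the tumours. The part of these cells and of the chromosome in the result was not tested.

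Ftl1 encodes the ferritin light chain, which helps form the iron core. Its values were 527, 353, 379 and 368 CPM (mean 406 ± 81.2, SD, n = 4). Here tumour 1 was the highest and tumours 2 to 4 did not spread much, with a 1.49-fold range over all 4 (adjusted p = 1.06e-91, chi-square test). On chromosome 7, which carries Ftl1, the median gene deviated by 0.18 (log2) in tumour 1, where Ftl1 deviated by 0.39. In tumours 2 to 4 that median deviated by -0.08, -0.10 and 0.02, and Ftl1 by -0.19, -0.08 and -0.13. The part of the chromosome in the Ftl1 values was not tested. The Ftl1 count is uncertain, because 8 other genes of the table share a near-identical stretch of sequence with it and could take its reads. Of these, Ftl1-ps1 (chromosome 13, annotated as protein coding) was counted at 68.6, 91.0, 10.7 and 108 CPM, a 10.02-fold range, and its 5′ UTR carries the same iron-responsive element letters as that of Ftl1. Gm15590, a processed pseudogene on chromosome 17, was counted at 41.4, 92.5, 129 and 86.0 CPM. The rest of the 8 had at most 1 count in any tumour, and 1 of them, the miRNA gene Gm22133, lies within Ftl1 itself.

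When Ftl1 and the 8 genes that share its sequence, called copies here, were summed, the tumours came to 637, 536, 518 and 562 CPM (mean 563 ± 52.4, SD, n = 4). The range of the sum was 1.23-fold, narrower than that of Ftl1 alone, and tumour 1 remained the highest. Of the summed counts, tumours 1 to 4 had 17.3%, 34.2%, 26.9% and 34.6% in the copies. The Wilson 95% intervals of these shares were 16.3 to 18.2, 32.9 to 35.6, 25.6 to 28.3 and 33.2 to 35.9. The intervals cover counting error only. Thus the share assigned to the copies was lowest in the tumour with the highest Ftl1, and the 2 ferritin chains were highest in different tumours whether or not the copies were added.

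**Figure D2:**
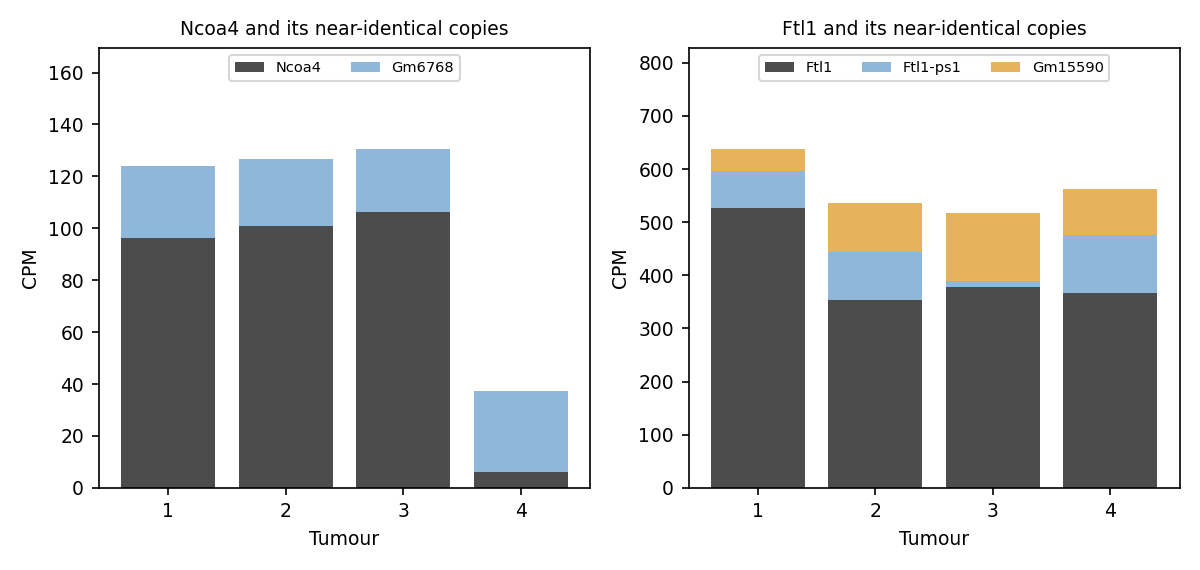
Reads assigned to Ncoa4 and Ftl1 and to their near-identical copies in each tumour, in CPM, as stacked bars that start at 0. In tumour 4 the copy Gm6768 makes up 83.7% of the Ncoa4 sum, and with copies added the Ftl1 bars run from 518 to 637 CPM.

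Ncoa4 (ENSMUSG00000056234, chr14:32159865-32179855, plus strand, GRCm38) encodes the receptor that carries ferritin to the lysosome for iron release. It had 874, 868 and 861 counts in tumours 1 to 3 and 51 in tumour 4. In CPM these are 96.2, 101 and 106 (mean 101 ± 5.05, SD, n = 3) against 6.07 in tumour 4, with an exact Poisson 95% interval of 4.52 to 7.98 for the counting error. Tumour 4 thus held 6.00% of the mean of the other tumours, a 16.7-fold lower level (15.9-fold to 17.5-fold against each of them). The transcript was low but detected, well above the 3-count level.

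These values chose the gene, and the following only places them. Of all tested genes, 5.86% had 1 tumour that stood away from the other 3 by Dixon's 95% criterion for 4 values (the gap to the nearest tumour divided by the whole range of log2 CPM), and 0.281% had tumour 4 as a low value of this kind. Among the 28 such genes with a mean of at least 10 CPM, Ncoa4 had the widest gap, 3.97 on the log2 scale, and Gm10036 came next at 1.22. Ncoa4 ranked 176th of 14225 genes by SD (2.02, log2).

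The gap was narrower when a processed copy of the gene was counted in. Gm6768 on chromosome 12 (chr12:119260978-119262855, plus strand) matches Ncoa4 over 1883 bases at 99.6% identity, and reads from that stretch could be assigned to either. It was counted at 27.9, 25.8, 24.2 and 31.2 CPM, so it was not low in tumour 4. The sum of both was 124, 127, 130 and 37.2 CPM, a 3.50-fold range. Gm6768 took 22.5%, 20.4% and 18.5% of the sum in tumours 1 to 3 (Wilson 95% intervals 20.2 to 25.05, 18.1 to 22.9 and 16.3 to 21.0) and 83.7% in tumour 4 (79.2 to 87.4). Tumour 4 was low on either count.

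Of the 8 tested neighbours, 0 were lowest in tumour 4, which is the lowest for 17.7% of all tested genes, so that the count by itself says little. Tumour 4 minus the mean of the others was 0.32 (log2) for Ankrd28, 0.73 for Galnt15, 0.20 for Dph3, 0.21 for Oxnad1, 0.36 for Parg, 0.32 for Ogdhl and 0.16 for Ercc6. Timm23, a mitochondrial import subunit whose gene lies 0.307 kb past the end of Ncoa4, came to -0.18, with only 11 to 21 counts per tumour and 7 near-identical copies. Ncoa4 itself came to -4.04. Several of the neighbours overlap other annotated genes, which makes their counts less certain. The median gene of chromosome 14 deviated by 0.19 in tumour 4, upwards.

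**Figure D3:**
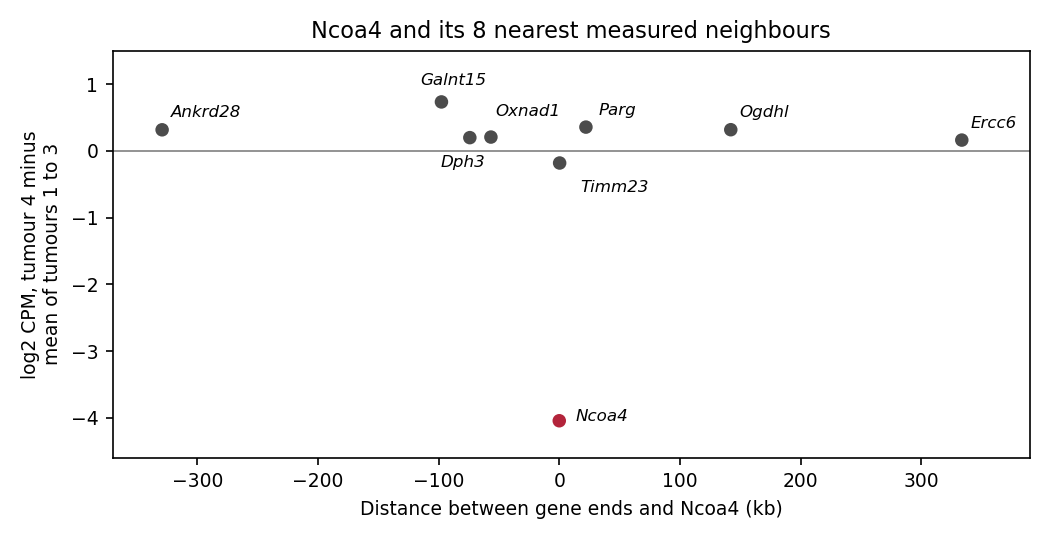
Tumour 4 minus the mean of tumours 1 to 3, in log2 CPM, for Ncoa4 and its tested neighbours, by distance in kb between the gene ends and Ncoa4. Ncoa4 lies at -4.04, and the 8 neighbours lie between -0.18 and 0.73.

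Tfrc encodes the transferrin receptor, the main entry for transferrin iron. It was measured at 288, 402, 523 and 320 CPM (mean 383 ± 105, SD, n = 4), a 1.81-fold range (adjusted p = 1.71e-155, chi-square test). Tumour 3 was the highest and tumour 1 the lowest, as for Fth1. The median gene of chromosome 16, where Tfrc lies, deviated by -0.31 in tumour 1, close to the -0.37 of Tfrc, but by 0.11 in tumour 3 against 0.49 for Tfrc. The 6 erythroid markers detected, a lineage rich in transferrin receptor, summed to 39.8, 32.3, 110 and 45.3 CPM, and 5 of the 6 were at their highest in tumour 3. The proliferation markers summed to 785, 650, 648 and 544 CPM. The part of the chromosome and of these markers in the Tfrc values was not tested.

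Steap3, the endosomal reductase that prepares iron for transport, was by far the least abundant member. It had 25, 23, 34 and 23 counts, or 2.75, 2.67, 4.20 and 2.74 CPM. Tumour 3 was the highest, but no difference beyond counting noise was detectable at this depth (adjusted p = 0.251, chi-square test). Slc11a2, the divalent metal transporter that brings iron out of the endosome, was measured at 65.5, 63.5, 53.1 and 72.6 CPM (mean 63.7 ± 8.05, SD, n = 4). Tumour 3, which held the most Tfrc, held the least Slc11a2, within a range of 1.37-fold (adjusted p = 2.92e-05), and without tumour 3 the test was not passed (adjusted p = 0.0864).

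Lcn2 encodes lipocalin 2, a secreted protein that binds iron-loaded siderophores and is made by airway epithelium and neutrophils. Its values were 363, 1014, 1129 and 618 CPM (mean 781 ± 354, SD, n = 4), a 3.11-fold range that was the widest of the 9 members, or 1.83-fold without tumour 1. Tumour 1 was the lowest and tumour 4 lay between it and tumours 2 and 3. Club and airway markers were also lowest in tumour 1, where their sum was 40.7 CPM against 611, 883 and 528 in tumours 2 to 4 and 4 of 5 were at their lowest. Alveolar type 2 markers were lowest there too, with a sum of 31082 CPM against 54292, 50731 and 57870 and 4 of 6 at their lowest. Neutrophil markers summed to 36.1, 48.8, 68.9 and 28.1 CPM, with Camp at 0, and were lowest in tumour 4. Their part in the result was not tested.

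Slc40a1 encodes ferroportin, the exporter of iron from cells. It was measured at 57.1, 163, 78.1 and 135 CPM (mean 108 ± 49.0, SD, n = 4). Tumours 2 and 4 were high and tumours 1 and 3 low, a 2.84-fold range (adjusted p = 4.74e-124). This order differed from that of Fth1 and Tfrc, which were highest in tumour 3, and from that of the macrophage marker sums, which were also highest in tumour 3. Tumour 1, its lowest, was also the lowest for the alveolar type 2 and club cell marker sums. Tumour 3, its next lowest, had the highest club and airway sum, 883 CPM, and the next lowest alveolar type 2 sum, 50731 CPM. The part of these markers in the Slc40a1 values was not tested. The median gene of chromosome 1, which carries Slc40a1, moved by at most 0.09 in any tumour.

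Aco1 varied least of the members. It encodes iron regulatory protein 1, doubles as the cytosolic aconitase, and was measured at 330, 344, 307 and 321 CPM (mean 325 ± 15.6, SD, n = 4). Its SD of 0.07 (log2) ranked 13891st of 14225 genes, and its 1.12-fold range still passed the test (adjusted p = 5.47e-04) at 2484 to 2999 counts per tumour, but not without tumour 3 (adjusted p = 0.0600). Ireb2, which encodes iron regulatory protein 2, was measured at 142, 195, 148 and 174 CPM (mean 165 ± 24.3, SD, n = 4), a 1.37-fold range (adjusted p = 2.90e-19). Tumour 2 was its highest, where it deviated by 0.25 (log2), and the median gene of chromosome 9 deviated by 0.21 there.

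**Figure D4:**
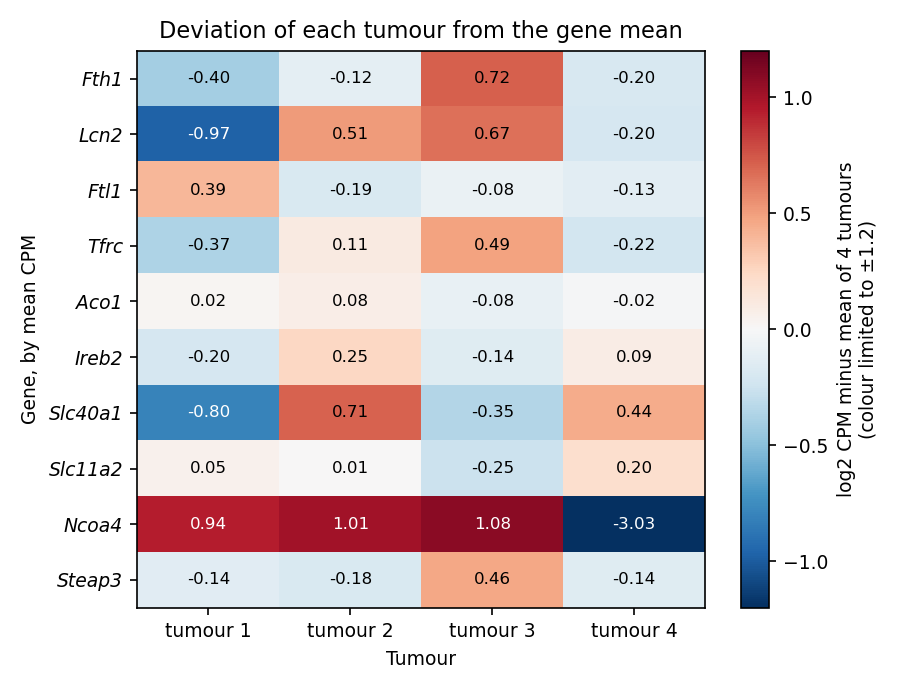
Deviation of each member from its own mean over the 4 tumours, in log2 CPM, printed in each cell and shown as a colour whose scale is limited to the range of the bar. Ncoa4 in tumour 4 is at -3.03, Aco1 runs from -0.08 to 0.08, and Fth1, Tfrc, Lcn2 and Steap3 are highest in tumour 3.

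**Figure D5:**
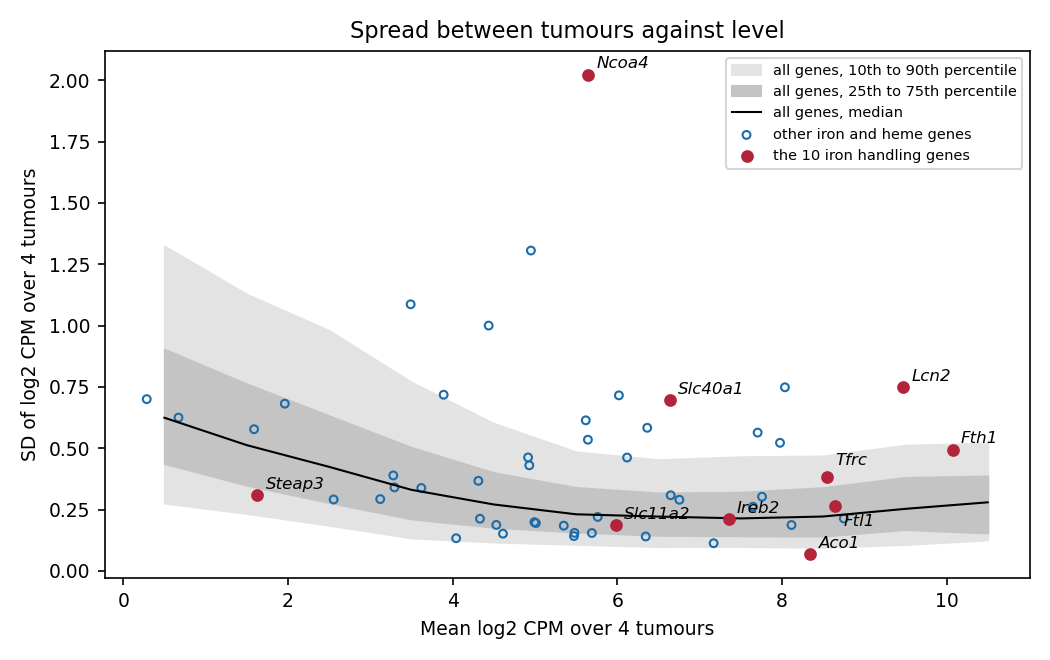
SD against mean of log2 CPM over the 4 tumours. Filled points are the 10 members, open points the other iron and heme genes, and the line and shaded bands the median and percentiles of all tested genes. Ncoa4 is the member with the largest SD, 2.02, and Aco1 the one with the smallest, 0.07.

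To compare the genes with each other, CPM was divided by the length of each gene's merged exons in kb. On this scale Fth1 (8.28 ± 0.49, mean log2 CPM per kb ± SD over 4 tumours), Ftl1 (8.23 ± 0.27) and Lcn2 (8.08 ± 0.75) were the most abundant. Aco1 (6.18 ± 0.07) and Tfrc (5.92 ± 0.38) followed, then Ireb2 (4.11 ± 0.21), Slc40a1 (3.47 ± 0.70) and Slc11a2 (3.32 ± 0.19). Steap3 was lowest at -0.89 ± 0.31, and Ncoa4 averaged 2.42 ± 2.02, a mean that describes none of the tumours. The 8 differences between neighbours in this order, Ncoa4 left aside, were taken within each tumour. In 4 of them the sign was the same in all 4 tumours: Lcn2 above Aco1 by 1.91 ± 0.77, Tfrc above Ireb2 by 1.81 ± 0.43, Ireb2 above Slc40a1 by 0.64 ± 0.49 and Slc11a2 above Steap3 by 4.20 ± 0.48. Each gave the smallest p that 4 tumours allow in a two-sided exact sign-flip permutation test (adjusted p = 0.25 over the 8), so no difference in this order could reach 0.05. With the longest transcript as the length, Ireb2 minus Slc40a1 was 0.16 (p = 0.625, exact permutation test) and the sign was shared in 3 of the 8. The other neighbours did not differ beyond their spread. For Fth1 minus Ftl1 the difference was 0.05 ± 0.66, and it was -0.74, 0.12, 0.86 and -0.02 in tumours 1 to 4.

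For each member, the genes with the most similar pattern were found among 10260 genes with a mean of at least 10 CPM, by the Euclidean distance of the 4 log2 deviations. For Ncoa4 the nearest gene, Fgl1, was at 1.82, followed by Dusp22 at 1.97, Gm11223 at 2.20, Apln at 2.23 and Gcnt1 at 2.26. The distance is not scaled to the spread of a gene. Ncoa4 was chosen for its wide deviation, so its large distances follow from that choice. The nearest pair lay much closer for the other members: Dus2l and Pdpr for Fth1, Neu1 and Wdr90 for Ftl1, Cyb5b and Adam9 for Tfrc, Rps6-ps1 and Shc1 for Slc11a2, Cast and Mgat4a for Steap3, Mmp19 and Tnfrsf11a for Lcn2, Casc4 and Scarf2 for Slc40a1, Stam2 and Tomm7 for Aco1, and Wdfy3 and Msl2 for Ireb2. Their distances ran from 0.017 for Stam2 to 0.21 for Tnfrsf11a. All points of a pattern share the same 4 libraries, and the distances are a description.

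The other genes of iron metabolism were taken as 5 lists of 50 genes in all. Of these, 43 had a mean of at least 1 CPM, and 40 of the 43 varied by more than counting noise, against 76.7% of all tested genes. In 16 of the 43 the range was over 2-fold, against 28.1% (17.1% of genes with a mean of at least 10 CPM). The median SD of the 43 was 0.34 (log2). Without tumour 1 the count over 2-fold was 9, against 17.6% of all tested genes. Without tumour 3 it was 10, against 16.1%. Tfr2, Hephl1, Hamp, Hfe2 and Ftmt did not exceed the 3-count level in the tumours, which includes hepcidin (Hamp), the hormone that closes ferroportin.

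In the uptake list, 9 of 11 genes were tested, 9 passed and 6 had a range over 2-fold. Cybrd1, a ferric reductase of the plasma membrane, was at 49.5, 64.6, 130 and 42.5 CPM, with tumour 3 the highest as for Tfrc, although it has many near-identical stretches elsewhere in the annotation and its count is uncertain. Steap2, another reductase, was at 7.04, 20.6, 19.3 and 17.1 CPM, with tumour 1 the lowest. Slc39a8, a zinc and iron importer, was at 188, 221, 160 and 242 CPM.

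In the export list, 4 of 8 genes were tested, 4 passed and 3 had a range over 2-fold. Cp encodes ceruloplasmin, the ferroxidase that works with ferroportin, and was at 8.36, 65.5, 47.5 and 34.8 CPM. Tumour 1 was lowest for Cp as for Slc40a1 and Lcn2. Hfe, a partner of the transferrin receptor, was at 16.9, 18.8, 21.6 and 23.7 CPM (adjusted p = 0.014, chi-square test).

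Of the genes for iron chaperones and ferritin turnover, 4 of 5 were tested, 4 passed and 0 had a range over 2-fold. The chaperones that load ferritin were both lowest in tumour 3, where Fth1 was highest: Pcbp1 was at 245, 263, 164 and 209 CPM, and Pcbp2 at 469, 462, 346 and 461 CPM. Tumour 3 was the lowest for 4625 of the 14225 tested genes, so this by itself says little. Pcbp2 also has 3 near-identical copies and 3 overlapping genes, which makes its count less certain. Herc2, a ubiquitin ligase that degrades Ncoa4 when iron is plentiful, was at 129, 150, 155 and 144 CPM. Its value in tumour 4 lay within the range of the others.

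Of the 8 mitochondrial iron genes, 7 passed and 1 had a range over 2-fold. This was the importer Slc25a37, at 121, 243, 212 and 303 CPM, whose gene overlaps others. Glrx5, an iron-sulphur cluster factor, was at 27.8, 20.9, 16.2 and 16.4 CPM. Slc25a28, the paralogous importer, did not pass, at 16.3, 15.7, 18.8 and 15.2 CPM (adjusted p = 0.326, chi-square test).

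Of the 18 heme genes, 16 passed and 6 had a range over 2-fold. Hpx, which encodes the heme scavenger hemopexin, was at 16.1, 22.9, 3.95 and 10.7 CPM. The hepatocyte markers summed to 492, 271, 28.3 and 225 CPM, lowest in tumour 3 like Hpx. Nearly all of the sum was Alb, at 455, 237, 27.4 and 215 CPM, which does not show that hepatocytes were present. The part of these markers in the Hpx values was not tested. Abcg2, an exporter of porphyrins and drugs, was at 22.2, 53.7, 9.996 and 18.3 CPM, and Ppox, an enzyme of heme synthesis, at 46.1, 38.6, 45.2 and 48.4 CPM.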

How the data were processed

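RNA from 4 control tumours was sequenced as stranded poly(A) libraries. The authors trimmed reads with Cutadapt, aligned them to mm10 with HISAT2 and, per the labels, counted them per gene with featureCounts 1.4.4. The annotation release and strand setting were not given in the sources used here. The deposited tables hold raw counts per gene and, separately, the authors' log2 values after TMM scaling and voom; the counts were used for all values reported, and the log2 table only as an alternative for the members' SDs.

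Counts were scaled to CPM with TMM factors (edgeR 4.0.16, R 4.3.3). Genes with a mean of at least 1 CPM were tested by chi-square against equal CPM in the 4 libraries, with Benjamini-Hochberg adjustment and a threshold of 0.05; SDs are over log2 CPM with 0.5 added to each count. Levels per kb were compared by exact sign-flip permutation. Copies sharing at least 80 bases at 97% identity were found with BLAST 2.17.0. The script was tested on simulated data. The members and gene lists were chosen with earlier results of these data known. Pathway genes named are those with the 2 largest SDs and the smallest in each list, at a mean of at least 10 CPM. Alternatives were other size factors, filters, lengths, a negative binomial model, summed copies (chosen after seeing the data) and each tumour left out. Counting intervals cover counting error only. The chi-square p-values measure departure from counting error among these libraries and get smaller with depth. They do not measure the spread between mice. Nothing in the labels ties the tumours to separate cages, and whether they came from different mice was not settled here, so n counts tumours. One marker gene is not reported here.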

Additional observations from a re-analysis of the deposited data

Results flagged for a closer look

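Dixon's ratio (the gap of 1 tumour to its closest neighbour as a fraction of the range, in log2 CPM) was computed for 71 results and passed its 95% critical value in 9, as it did for 5.86% of all tested genes and as chance does in about 1 in 20. The 9 cannot be read against that share, because 5 of them were chosen for such a pattern or for their likeness to a gene's pattern: Ncoa4 with and without its copy, Wdr90, Cast and Mgat4a. For Ncoa4 the ratio is a description of the values that chose it. Among the members these were Ncoa4 at 0.965, with tumour 4 low, and Steap3 at 0.938, with tumour 3 high on 23 to 34 counts per tumour. Ncoa4 plus its copy was at 0.960, with tumour 4 low. Among the pathway genes, Steap2 was at 0.8293, only just past the 95% critical value, with tumour 1 low, and Pcbp2 at 0.944, with tumour 3 low. The club and airway marker sum was at 0.833, with tumour 1 low. The remaining results, Wdr90 at 0.862 with tumour 1 high and Cast at 0.940 and Mgat4a at 0.891 with tumour 3 high, were picked for a pattern like that of Ftl1 or Steap3.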

How the results depend on the processing

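Of 280 alternative values for single members under 13 settings, 267 were labelled unchanged, 9 moved and 4 reversed. A level difference was labelled unchanged if it kept its sign, and a mean, SD or range if it lay within the SD over the tumours. For an SD that margin is the SD itself, so the label says little. The SD of Ncoa4 fell from 2.02 to 0.076 without tumour 4, and that of Steap3 from 0.31 to 0.0215 without tumour 3. Both were labelled unchanged. The reversed values were level differences that did not differ beyond their spread to begin with: with 1 tumour left out, Fth1 minus Ftl1 ran from -0.21 (without tumour 3) to 0.32, Ftl1 minus Lcn2 from -0.31 (without tumour 1) to 0.39, and Slc40a1 minus Slc11a2 from -0.0825 (without tumour 2) to 0.43. Ftl1 minus Lcn2 was -0.32 with the longest transcript as the length. With 1 tumour left out, the members over 2-fold numbered 1 to 3, the pathway genes over 2-fold 9 to 16 and all genes over 2-fold 2280 to 3530 (3999 with all tumours); fewer libraries narrow a range by construction. The latter count was 10459 of 21175 genes without a filter on low counts and 1757 of 10269 at a mean of at least 10 CPM, and without the filter 3445 genes had 1 tumour far from the others. A negative binomial model in place of the chi-square test called 8 of the 9 members, 34 pathway genes and 9940 genes. With tumour 3 left out, 6 of the 9 members passed, against 62.4% of all tested genes. The calls lost were those of Slc11a2 and Aco1. No paired analysis was possible because the 4 tumours form 1 group. Lengths from the RefSeq table, which gives the genomic span, and Dixon's ratio with a tumour left out were not run. Depth limits Steap3 most, at 23 to 34 counts per tumour.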
